A study of Drosophila melanogaster with 30 samples.

Results

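The mitochondrial ribosomal protein genes are the rows of the count table whose name begins with mRpL or mRpS and a number. There were 73 of them among 17562 genes, 47 named for the large subunit and 26 for the small subunit. They lie on all major chromosome arms, with 12 genes on 2L, 12 on 2R, 17 on 3L, 21 on 3R and 11 on X. Of these genes 42 carry the number of a bacterial ribosomal protein (L1 to L36 and S1 to S21), and 31 carry higher numbers, which number proteins first named in mitochondrial ribosomes.

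Libraries were made from input RNA and from RNA pulled down with an antibody to N6-methyladenosine (m6A) in heads of adult male Drosophila, with 3 replicates of 200 heads in each of 5 conditions and 30 libraries in all. All flies carried da-GAL4, the daughterless driver, which is used as a ubiquitous driver. Its activity in single cell types of the head was not measured. UAS-dTrmt10A flies overexpressed CG14618 (dTrmt10A, the fly homolog of the tRNA methyltransferase TRMT10A) with a FLAG-HA tag, dTrmt10A RNAi flies expressed a VDRC KK hairpin against it, and control flies carried the KK insertion line in place of either transgene. Flies were 1 to 2 days old and reared at 25 °C. HS (heat shock) was 30 min at 38.5 °C and basal flies were not heated. UAS-dTrmt10A and control flies were measured under both conditions and RNAi flies under basal conditions. Because the UAS-dTrmt10A and control lines also differ in their insertions, the transgene's effect and the line's background cannot be told apart.

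Mitochondrial ribosomes translate the few proteins that mitochondrial DNA still encodes, all of them subunits of the respiratory chain and ATP synthase. Their rRNA comes from mitochondrial DNA, whereas all of their proteins are encoded in the nucleus, made in the cytosol and imported. Flight muscle and neurons, which live on oxidative phosphorylation, depend on these ribosomes, and in Drosophila a point mutation of a small subunit protein gene, tko, causes bang sensitivity.

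The input libraries held 20110909 to 51006574 counts and the IP libraries 16255688 to 30456825 counts. The targeted gene and the heat response went with the labels. CG14618 averaged 245 ± 9.15 CPM (read counts relative to the TMM-scaled library size) in UAS-dTrmt10A HS input, 166 ± 21.5 CPM in UAS-dTrmt10A basal input, 3.86 ± 0.135 CPM in RNAi basal input, 5.68 ± 0.305 CPM in control HS input and 8.09 ± 0.606 CPM in control basal input (SD, n = 3 each). Hsp68, a heat shock chaperone, rose with HS by 9.55 ± 0.18 on the log2 scale in UAS-dTrmt10A heads and by 9.09 ± 0.18 in control heads (SE). Photoreceptor, neuron, glia and muscle markers were all present, and testis and ovary markers summed to at most 0.564 CPM. Yp1, a yolk protein gene of the female fat body, did set libraries apart: its input level was 250.0 CPM in UAS-dTrmt10A HS replicate 3, 174 CPM in UAS-dTrmt10A basal replicate 1, 450.0 CPM in RNAi basal replicate 2 and 377 CPM in control basal replicate 1, and 0.268 to 50.5 CPM in the other input libraries. The counts below are therefore also given without these 4 RNA samples where that moves them, and the part of female tissue in any result was not tested.

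Of the 73 genes 72 passed the filter on low counts in every comparison. mRpL53 (chr2R:13954195-13955664, plus strand) had 0 counts in all 30 libraries. All of its 829 exonic bases (100%) lie in exons of CG33155 on the same strand, and reads over several genes were given to no gene by the counting mode the study states. Its 0 therefore gives no measure of its level.

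Members were short genes of moderate level. The median exon length of the 72 genes was 783 bases (range 327 to 2078), against 2097.5 bases over the 10050 genes tested that have an annotated length, and their median GC content was 50.0%, against 49% over all genes tested. Exons of 41 of them (56.9%) overlap an exon on the opposite strand, against 35.1% of all genes tested. Whether counting used the strand is not given in the sources used here, so levels of mRpS24 (55.3% of its exonic bases overlapped), mRpS21 (48.0%), mRpS14 (32.0%) and mRpS9 (25.1%) are uncertain, as is that of mRpL13, which shares 35.2% of its exonic bases with CG10602 on the same strand. The 42 members with an exon overlap and the 30 members with none had median changes with HS of -0.39 and -0.37 on the log2 scale in UAS-dTrmt10A heads and -0.20 and -0.18 in control heads. Their median IP/input ratios, described further on, lay further apart in control basal, UAS-dTrmt10A basal and UAS-dTrmt10A HS heads. In control HS and RNAi basal heads those medians were about as close as the changes with HS.

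Promoters of the members were searched from 250 bases before to 50 bases after the annotated start site, on both strands. The DNA replication-related element TATCGATA, a palindrome bound by the transcription factor DREF and common in promoters of housekeeping and mitochondrial genes, was found in 15 of 72 members (20.8%) and in 11.9% of the 10044 promoters of genes tested. TATAAA was found in 34 members (47.2%), against 43.2%, and GAANNTTC, the core of a heat shock element, in 8 (11.1%), against 8.89%. With HS in UAS-dTrmt10A heads, 11 of the 15 members with the element and 40 of the 57 without it passed the test as lower, beside 22.0% of all genes. In control heads 6 of the 15 were lower and 0 higher, and 16 of the 57 were lower and 5 higher. Of all genes tested in control heads 23.1% were called lower and 19.3% higher. The 7 members below are shown because their element and the 15 bases after it all lie upstream of the start site. Each line gives 15 bases on either side of the element in capitals, 5′ to 3′ along the gene's strand, from the RefSeq genome of Release 6 (dm6).
mRpL16 (chrX:1890209-1890246, plus strand, element 32 bases before the start site): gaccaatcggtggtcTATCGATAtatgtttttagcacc
mRpL19 (chr3R:8674069-8674106, plus strand, 25 bases before): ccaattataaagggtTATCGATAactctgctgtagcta
mRpL22 (chrX:16783845-16783882, plus strand, 73 bases before): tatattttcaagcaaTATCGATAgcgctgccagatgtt
mRpL32 (chr3R:31252830-31252867, plus strand, 27 bases before): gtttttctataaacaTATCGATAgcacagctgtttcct
mRpL39 (chr3L:14999676-14999713, minus strand, 32 bases before): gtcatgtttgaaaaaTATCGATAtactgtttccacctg
mRpS23 (chr2L:13835259-13835296, minus strand, 209 bases before): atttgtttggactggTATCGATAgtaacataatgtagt
mRpS25 (chrX:14583001-14583038, minus strand, 41 bases before): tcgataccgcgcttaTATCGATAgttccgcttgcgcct
Of these members mRpL19, mRpL32, mRpL39 and mRpS23 were lower after HS in both genotypes, mRpL16 and mRpL22 in UAS-dTrmt10A heads, and mRpS25 passed in neither.

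Input levels between genes were compared per kb of exon. In control basal heads the median over the 72 members tested was 19.9 CPM per kb, against 9.75 CPM per kb over 10189 genes tested. The cytosolic ribosomal protein genes had a median of 564 CPM per kb, far above. mRpS9, whose bacterial homolog reaches the P-site tRNA, was highest at 91.4 ± 6.29 CPM per kb (SD, n = 3). mRpS5, a small subunit protein near the mRNA entry, followed at 70.6 ± 0.893, mRpL55 at 61.5 ± 1.66 and mRpL24 at 46.9 ± 3.93 CPM per kb. These leading genes stood apart from each other in all 3 libraries. At the low end stood mRpS2 (10.3 ± 0.597), mRpS18B (8.996 ± 0.594) and mRpL21 (7.24 ± 0.609 CPM per kb). Of the 71 neighbouring pairs in this order 5 did not overlap in their 3 libraries, so most of the order was within the spread between replicates. The share of all input counts that fell on the members was 0.109 ± 0.00216% in UAS-dTrmt10A HS, 0.129 ± 0.00669% in control HS, 0.169 ± 0.00216% in UAS-dTrmt10A basal, 0.176 ± 0.00232% in RNAi basal and 0.176 ± 0.00684% in control basal heads (SD, n = 3 each). Both HS groups lay below all 3 basal groups in this share of raw counts. With TMM scaling the summed member levels were 1449.8, 1340.2 and 1409.1 CPM in control HS input. They overlapped the 1524.2, 1415.2 and 1512.4 CPM of control basal input. In UAS-dTrmt10A HS input the sums were 1231.0, 1201.6 and 1219.6 CPM, under the 1490.9, 1479.7 and 1432.2 CPM of UAS-dTrmt10A basal input. In bulk heads, fewer cells of a type and less RNA per cell cannot be told apart.

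**Figure D1:**
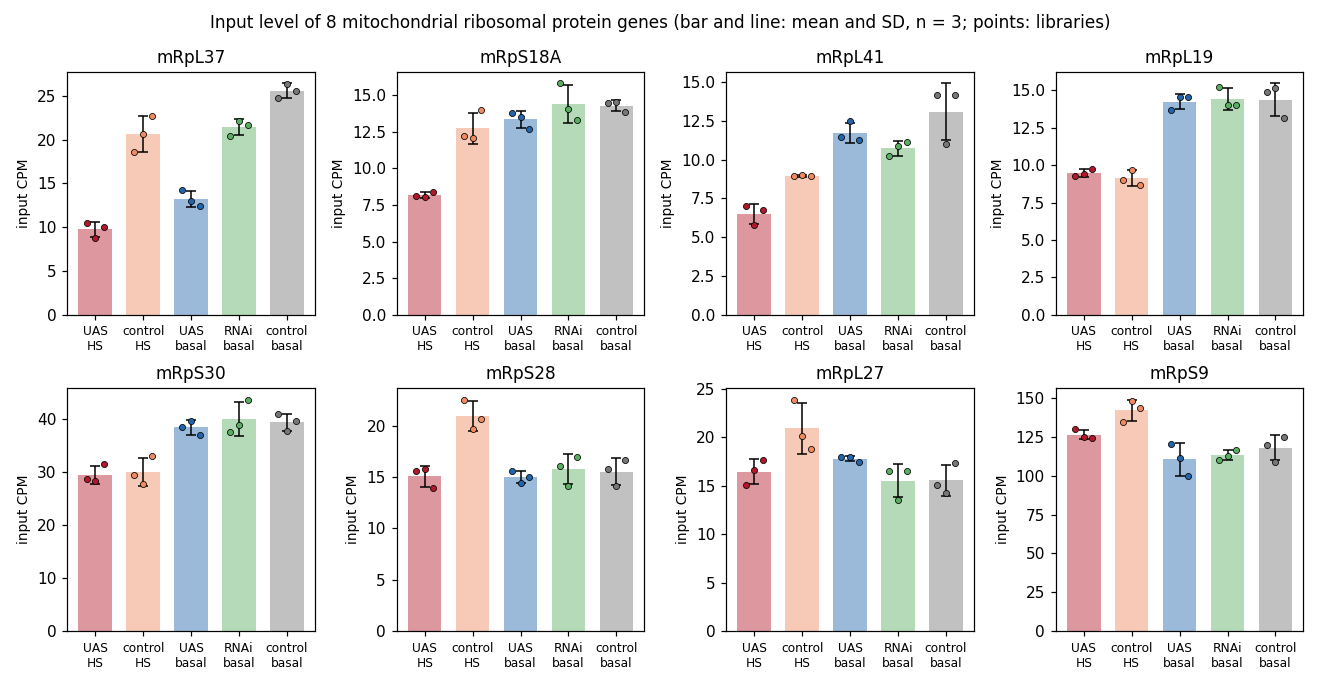
Input level (CPM, linear axis from 0) of 8 members in the 5 groups of 3 libraries, with points for libraries, bars for means and lines for SD. mRpL37 lies lower in both UAS-dTrmt10A groups, at 8.78 to 14.3 CPM, than in any other library, and mRpS28 is raised in control HS heads, at 19.7 to 22.5 CPM.

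HS against basal conditions in control heads asked how an acute heat stress changes these transcripts. Of the 72 members 22 were lower and 5 higher after HS at an adjusted p under 0.05, beside 23.1% of all genes tested called lower and 19.3% called higher. The median log2 change was -0.20 over the members and -0.002 over all genes, and 55 of the 72 fitted changes were below 0. All 3 HS libraries lay under all 3 basal libraries for 27 members and above them for 6. Here and below, such separation of libraries was not counted over all genes, so no background stands beside it. At an unadjusted p under 0.05 there were 38 members. Here and below, counts at an unadjusted p have no share of all genes beside them and show nothing particular to the members. Scaling by total library size moved the median of all genes by about as much as it moved the members, to -0.36 over all genes and -0.56 over the members, and left 0 members higher and 59 lower. Removing a trend with exon length gave 2 higher and 51 lower. Without control basal replicate 1, which is also the control library with high Yp1, 3 members were higher and 14 lower. Counts under another setting, here and below, are not to be read as particular to the members where no share of all genes is given.

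In UAS-dTrmt10A heads the same contrast was tested. Of 72 members 51 were lower and 0 higher after HS, beside 22.0% of all genes called lower and 18.7% called higher. The median log2 change was -0.39, against -0.003 over all genes, and 70 of 72 fitted changes were below 0. Each of the 3 HS libraries was under each basal library for 61 members and above for 1, again with no count over all genes. Members named for the large subunit had 32 of 46 lower and those named for the small subunit 19 of 26. Members with bacterial and with higher numbers had 28 of 42 and 23 of 30 lower. With the length trend removed 57 were lower and 1 higher, at a median of -0.39, against 51 lower and a median of -0.35 in control heads under the same setting. No median of all genes under this setting stands beside these values, so they are not to be read as particular to the members. With total library size 71 members were lower, at a median of -0.75, where all genes had a median of -0.37. Without the libraries with high Yp1, 36 were lower and 1 higher. Of the 22 members lower in control heads 21 were also lower in UAS-dTrmt10A heads, which is 95.5% of the control list and 41.2% of the UAS-dTrmt10A list. This overlap was not counted over all genes, so it shows nothing particular to the members.

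**Figure D2:**
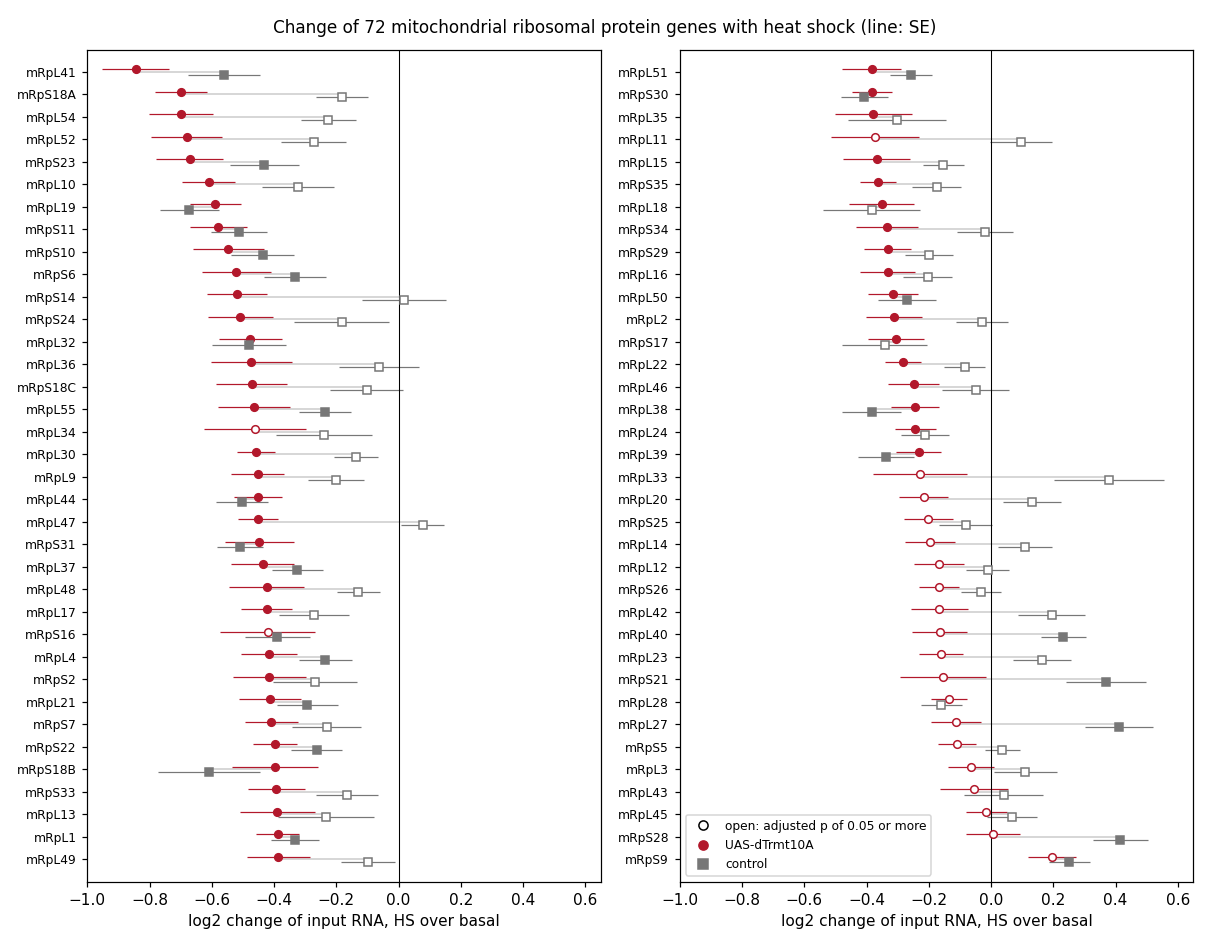
Log2 change of input RNA with HS over basal conditions for 72 members, ordered by the change in UAS-dTrmt10A heads (circles, upper mark of each row) with the change in control heads below it (squares). Lines are SE, filled marks have an adjusted p under 0.05, and the gene order runs from mRpL41 (-0.84) to mRpS9 (0.20) in UAS-dTrmt10A heads.

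Markers of cell types in the head moved with HS too. The summed neuron markers were 3845 to 4006 CPM in UAS-dTrmt10A HS, 3448 to 3665 CPM in control HS, 3047 to 3120 CPM in UAS-dTrmt10A basal and 3136 to 3224 CPM in control basal heads. All 5 neuron markers rose with HS in UAS-dTrmt10A heads and 2 of 5 in control heads. The summed muscle markers were 5304 to 5844 CPM in UAS-dTrmt10A HS, 4230 to 5445 CPM in control HS, 3589 to 4330 CPM in UAS-dTrmt10A basal and 3452 to 4031 CPM in control basal heads, so for both lists the HS libraries had the higher sums in these genotypes. Photoreceptor sums were 33290 to 37130 CPM, 32160 to 39700 CPM, 28260 to 32480 CPM and 28170 to 30560 CPM in the same order of groups, glia sums were 2361 to 2464, 2195 to 2219, 1978 to 2169 and 2051 to 2118 CPM, and fat body sums were 5778 to 7339, 3866 to 6773, 4640 to 7001 and 2895 to 5410 CPM. Their part in the lower member levels was not tested.

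In UAS-dTrmt10A heads the decrease was largest in mRpL41, a protein of the large subunit that bacterial ribosomes lack. It had 7.003, 5.77 and 6.78 CPM in UAS-dTrmt10A HS heads, against 11.5, 12.5 and 11.3 CPM in UAS-dTrmt10A basal heads. In control heads it had 8.93, 9.03 and 8.94 CPM after HS, against 14.1, 11 and 14.15 CPM under basal conditions. The HS and basal libraries did not overlap in either genotype, and mRpL41 fell by 0.84 ± 0.11 in UAS-dTrmt10A heads (adjusted p = 0.000608) and by 0.56 ± 0.12 in control heads (log2, SE, adjusted p = 0.00483). mRpL19, whose bacterial homolog sits at the bridge between the subunits, had 9.26, 9.43 and 9.78 CPM in UAS-dTrmt10A HS heads, against 13.7, 14.5 and 14.6 CPM in UAS-dTrmt10A basal heads. In control HS heads it had 8.98, 9.71 and 8.66 CPM, against 14.9, 15.1 and 13.2 CPM in control basal heads. The groups did not overlap and the decreases were of like size, 0.59 ± 0.08 in UAS-dTrmt10A heads (adjusted p = 0.000891) and 0.67 ± 0.10 in control heads (log2, SE, adjusted p = 0.000725). mRpS11, a protein of the platform of the small subunit, had 6.96, 6.71 and 7.36 CPM in UAS-dTrmt10A HS heads, against 10.965, 10.3 and 10.2 CPM in UAS-dTrmt10A basal heads, and fell by 0.58 ± 0.09 there (adjusted p = 0.0016) and by 0.51 ± 0.09 in control heads (log2, SE, adjusted p = 0.00223).

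The 3 S18 paralogs, related to a single bacterial protein, differed in their values. mRpS18A had 8.08, 8.07 and 8.42 CPM in UAS-dTrmt10A HS heads, against 13.8, 13.5 and 12.7 CPM in UAS-dTrmt10A basal heads. In control heads it had 12.2, 12.04 and 14.0 CPM after HS, against 14.5, 14.5 and 13.9 CPM under basal conditions. It was thus clear of the basal range in UAS-dTrmt10A heads, with a log2 change of -0.70 ± 0.08 (SE, adjusted p = 0.000431), while the control groups overlapped, with -0.18 ± 0.09 (adjusted p = 0.118). mRpS18B had 4.89, 5.07 and 6.18 CPM in UAS-dTrmt10A HS heads, against 7.99, 6.29 and 7.09 CPM in UAS-dTrmt10A basal heads. It had 5.66, 5.92 and 3.85 CPM in control HS heads, against 7.42, 8.35 and 7.52 CPM in control basal heads. The HS and basal libraries did not overlap in either genotype, and the log2 change was -0.40 ± 0.14 in UAS-dTrmt10A heads (adjusted p = 0.0489) and -0.61 ± 0.16 in control heads (SE, adjusted p = 0.016, and 0.0568 without control basal replicate 2). mRpS18C had a log2 change of -0.47 ± 0.11 in UAS-dTrmt10A heads (adjusted p = 0.011) and of -0.10 ± 0.12 in control heads (SE, adjusted p = 0.515).

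Among proteins of the stalk base and stalk, which recruit translation factors, mRpL10 changed by -0.61 ± 0.09 with HS in UAS-dTrmt10A heads (adjusted p = 0.00092), while mRpL11 (-0.37 ± 0.14, adjusted p = 0.0645) and mRpL12 (-0.17 ± 0.08, adjusted p = 0.13) did not pass. In control heads mRpL10 (-0.32 ± 0.12, adjusted p = 0.0505), mRpL11 (0.10 ± 0.10) and mRpL12 (-0.01 ± 0.07) did not pass. Among proteins around the peptidyl transferase centre and the exit tunnel, mRpL2 (-0.31 ± 0.09), mRpL4 (-0.42 ± 0.09) and mRpL16 (-0.33 ± 0.09) were lower in UAS-dTrmt10A heads, with adjusted p of 0.0234, 0.00667 and 0.0163, and mRpL3 was not (-0.07 ± 0.07, adjusted p = 0.523). Of these 4 genes mRpL4 alone passed in control heads (-0.24 ± 0.08, adjusted p = 0.049). mRpL45, which anchors the ribosome to the inner membrane, had log2 changes of -0.02 ± 0.07 in UAS-dTrmt10A heads and 0.07 ± 0.08 in control heads, both within the replicate spread. mRpS29, the GTP-binding protein known as DAP3 in mammals, was lower in UAS-dTrmt10A heads (-0.33 ± 0.08, adjusted p = 0.00827) and had -0.20 ± 0.08 in control heads (SE, adjusted p = 0.065). mRpS30, which belongs to the large subunit in mammals and is related to mRpL37, was lower in both, by a log2 change of -0.38 ± 0.06 in UAS-dTrmt10A heads (adjusted p = 0.00209) and -0.41 ± 0.08 in control heads (SE, adjusted p = 0.00275). mRpL54 (-0.70 ± 0.10, adjusted p = 0.00116), mRpL52 (-0.68 ± 0.11, adjusted p = 0.00202) and mRpL55 (-0.46 ± 0.12, adjusted p = 0.013), which have no bacterial counterpart, were lower in UAS-dTrmt10A heads. In control heads mRpL55 passed (-0.24 ± 0.08, adjusted p = 0.0469), while mRpL54 (-0.23 ± 0.09) and mRpL52 (-0.27 ± 0.10) did not.

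The 5 members higher after HS in control heads were mRpS28, mRpL27, mRpS21, mRpS9 and mRpL40, and their rise depended on the scaling. mRpS28 had 22.5, 19.7 and 20.6 CPM in control HS heads, against 15.8, 14.1 and 16.7 CPM in control basal heads. It rose by 0.42 ± 0.09 on the log2 scale (SE, adjusted p = 0.00558), and by 0.06 ± 0.09 with total library size (adjusted p = 0.566). mRpL27, whose bacterial homolog reaches into the peptidyl transferase centre, had 23.9, 20.1 and 18.8 CPM in control HS heads, against 15.1, 14.3 and 17.3 CPM in control basal heads. Its log2 change was 0.41 ± 0.11 (SE, adjusted p = 0.0157), and it did not pass without control HS replicate 1 or without control basal replicate 1 or 2 (adjusted p of 0.0544, 0.0593 and 0.0718). mRpS21, a small protein of the small subunit, had 8.82, 10.2 and 10.6 CPM in control HS heads, against 8.46, 6.45 and 7.77 CPM in control basal heads, a change of 0.37 ± 0.13 (SE, adjusted p = 0.0451). It did not pass without control HS replicate 2 or 3 (adjusted p of 0.098 and 0.133) or control basal replicate 2 or 3 (0.147 and 0.0898). mRpS9 had 135, 148 and 144 CPM in control HS heads, against 120, 109 and 125 CPM in control basal heads, and rose by 0.25 ± 0.07 (SE, adjusted p = 0.0141), but had a change of -0.10 with total library size and lost the call without control basal replicate 2 (adjusted p = 0.0556). mRpL40 rose by 0.23 ± 0.07 (SE, adjusted p = 0.031). In UAS-dTrmt10A heads these 5 genes had log2 changes with HS of 0.006 (mRpS28), -0.11 (mRpL27), -0.15 (mRpS21), 0.20 (mRpS9) and -0.17 (mRpL40), and none of the 5 passed.

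The difference in the HS response between UAS-dTrmt10A and control heads was tested as an interaction. Of 72 members 0 passed in edgeR's quasi-likelihood test in either direction, beside 0.0379% of all genes tested. At an unadjusted p under 0.05 there were 24 members and DESeq2 called 1, both with no share of all genes beside them. The median interaction was -0.20 over the members, against -0.005 over all genes. With the length trend removed it was -0.08 over the members, with no median of all genes beside it. The cytosolic ribosomal protein genes had a median of -0.20 as well. mRpL47, whose bacterial homolog sits at the exit of the peptide tunnel, had the smallest p among the members. It had 20.8, 22.0 and 22.1 CPM in UAS-dTrmt10A HS heads and 31.4, 26.8 and 30.0 CPM in control HS heads, against 28.9, 30.7 and 29.0 CPM in UAS-dTrmt10A basal heads and 27.4, 27.4 and 27.7 CPM in control basal heads. The UAS-dTrmt10A HS libraries lay under all others, and the interaction was -0.54 ± 0.09 (SE, adjusted p = 0.0724), with adjusted p of 0.000847 to 0.442 over 11 alternatives. mRpL47 was the member called by DESeq2, with no filter, in a fit of all libraries and without control HS replicate 2. mRpS18A followed (-0.53 ± 0.11, adjusted p = 0.0788).

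Genes that work beside the mitochondrial ribosome were given from lists of their function, to be read beside the 22.0% of all genes called lower and 18.7% called higher with HS in UAS-dTrmt10A heads and the 23.1% and 19.3% in control heads. Of the ribosomal proteins named otherwise, bonsai (the S15 homolog) was lower with HS in both genotypes, by -0.37 ± 0.09 in UAS-dTrmt10A heads (adjusted p = 0.0102) and -0.40 ± 0.07 in control heads (SE, adjusted p = 0.00198), and tko (the S12 homolog) passed in neither (-0.22 ± 0.09 and -0.01 ± 0.13). Of 8 translation factors tested 4 were lower with HS in UAS-dTrmt10A heads and 5 in control heads, and 0 were higher. The initiation factor gene mIF2 changed by -1.03 ± 0.12 in UAS-dTrmt10A heads (adjusted p = 0.000353) and -0.70 ± 0.15 in control heads (adjusted p = 0.00555), and mIF3 by -0.62 ± 0.12 and -0.54 ± 0.13. Of 12 genes for mitochondrial DNA and transcript handling 6 were lower in UAS-dTrmt10A heads and 8 in control heads, and 0 higher, among them mTerf5 (-0.68 ± 0.10 and -0.58 ± 0.10) and the transcription factor gene mtTFB2 (-0.71 ± 0.20 and -0.67 ± 0.14). TFAM, which packages mitochondrial DNA, passed in neither (-0.08 ± 0.06 and 0.09 ± 0.08). Of 8 genes tested for mitochondrial chaperones and proteases 2 were higher in each genotype, a share near that of all genes. In UAS-dTrmt10A heads 1 was lower and in control heads 0. Hsp22, a heat shock gene on the same list, did not pass the filter on low counts, so these counts say nothing of it. The mitochondrial Hsp70 gene Hsc70-5 rose by 0.63 ± 0.07 in UAS-dTrmt10A heads (adjusted p = 0.000316) and by 0.56 ± 0.05 in control heads (SE, adjusted p = 8.76e-05), and Hsp60A rose by 0.20 ± 0.07 and by 0.28 ± 0.06. Roe1, a nucleotide exchange factor, was lower in UAS-dTrmt10A heads (-0.59 ± 0.09, adjusted p = 0.00161). Of the cytosolic ribosomal protein genes 73 of 85 rose with HS in UAS-dTrmt10A heads and 81 of 84 in control heads, 0 fell, and their medians were 0.25 and 0.44, opposite in sign to those of the mitochondrial ribosomal protein genes.

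UAS-dTrmt10A against control heads under basal conditions asked what overexpression does without stress. Of 72 members 1 was lower, mRpL37, and 0 were higher, beside 1.01% of all genes called lower, and 7 members had an unadjusted p under 0.05. The median change was -0.02. mRpL37 (chr3R:10782563-10784092, minus strand, 1356 exonic bases, no exon overlap with another gene) encodes a protein of the large subunit that bacteria lack. It had 14.3, 13.0 and 12.5 CPM in UAS-dTrmt10A basal heads, against 24.7, 26.4 and 25.6 CPM in control basal heads. After HS it had 10.5, 8.78 and 9.99 CPM in UAS-dTrmt10A heads, against 18.6, 20.6 and 22.7 CPM in control heads. The groups were far apart under both conditions, with log2 changes of -0.96 ± 0.07 under basal conditions (adjusted p = 0.000359) and -1.09 ± 0.11 after HS (SE, adjusted p = 0.00118), which is 0.514 and 0.47 of the control level. Both calls held in all 11 alternatives and all 6 fits that left out a library. In RNAi basal heads, whose line shares the KK insertion background of the control, mRpL37 had 20.4, 22.1 and 21.7 CPM. Those values lay under the control basal range, with a log2 change of -0.25 ± 0.06 (SE) that did not pass over all genes (adjusted p = 0.144).

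After HS, 10 of 72 members were lower in UAS-dTrmt10A than in control heads and 0 were higher, beside 3.33% of all genes called lower. The median was -0.22, against -0.004 over all genes. All 3 UAS-dTrmt10A libraries lay under all 3 control libraries for 41 members, again with no count over all genes. Deviations of same-numbered libraries correlated at 0.137 to 0.248 in this comparison, though the labels give no pairing beyond the number. With the replicate as a block 17 members were lower, beside 5.63% of all genes. Removing the length trend left 3 members lower, a fit of all input libraries gave 20 lower and 1 higher, and 4 were lower without the library with high Yp1. Leaving out 1 library gave 4 lower (without UAS-dTrmt10A HS replicate 1 or replicate 3), 3 (without replicate 2), 2 (without control HS replicate 1 or replicate 3) and 10 (without control HS replicate 2).

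The 4 largest of these decreases were in mRpL37, mRpS18A, mRpS14 and mRpL11. mRpS18A had 8.08, 8.07 and 8.42 CPM in UAS-dTrmt10A HS heads, against 12.2, 12.04 and 14.0 CPM in control HS heads, a log2 change of -0.65 ± 0.10 (SE, adjusted p = 0.0089) that passed in all 11 alternatives and all 6 fits without a library. mRpS14, a protein of the small subunit head, had 9.35, 9.62 and 11.4 CPM in UAS-dTrmt10A HS heads, against 18.1, 12.6 and 16.1 CPM in control HS heads. mRpL11 had 8.601, 7.18 and 8.23 CPM in UAS-dTrmt10A HS heads, against 12.8, 10.4 and 10.7 CPM in control HS heads. These groups did not overlap either, but the control libraries were wide apart. mRpS14 changed by -0.63 ± 0.14 (adjusted p = 0.0386, and past the threshold in 1 of 6 fits without a library) and mRpL11 by -0.51 ± 0.12 (SE, adjusted p = 0.0453, and in 0 of 6). The other 6 members called were mRpS28 (-0.49), mRpL54 (-0.49), mRpL41 (-0.47), mRpL47 (-0.45), mRpL9 (-0.43) and mRpL40 (-0.41). The same comparison had 18 of 85 cytosolic ribosomal protein genes lower, at a median of -0.12.

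dTrmt10A RNAi against control heads under basal conditions asked what knockdown does. Of 72 members 0 passed in edgeR's quasi-likelihood test and 0 in DESeq2, beside 0.714% of all genes tested called in either direction, and 4 had an unadjusted p under 0.05. The median change was -0.02 over the members and -0.001 over all genes, and single changes ran from -0.28 to 0.32. The comparisons under basal conditions share their control samples.

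The IP libraries were compared with the input libraries of the same group, gene by gene. The fits within a group did not use the pairing of IP and input by replicate number, which was fitted only as an alternative. The ratio says how much of a gene's fragmented RNA was recovered with the m6A antibody relative to the average gene, and it is not a count of modified sites. In control basal heads IP was below input for 43 of 72 members and above for 7, beside 34.6% of all genes below and 35.3% above. The median log2 IP/input was -0.40 over the members, against -0.05 over all genes. Members named for the small subunit had 20 of 26 below and 2 above, with a median of -0.60. Those named for the large subunit had 23 of 46 below and 5 above, with a median of -0.25. The cytosolic ribosomal protein genes had 70 of 84 below, at a median of -0.66, and all 15 mitochondrially encoded transcripts tested were below, at a median of -4.17. tko was below (-0.77 ± 0.09, adjusted p = 2.04e-05) and bonsai was not past the threshold (-0.04 ± 0.09).

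The other groups gave like counts. In UAS-dTrmt10A HS heads 44 members were below and 6 above, beside 35.8% and 33.6% of all genes, with a median of -0.56. In control HS heads 45 were below and 6 above, beside 35.7% and 35.0%, with a median of -0.45. In UAS-dTrmt10A basal heads 42 were below and 6 above, beside 31.3% and 31.1%, with a median of -0.37, and in RNAi basal heads 42 were below and 7 above, beside 38.4% and 35.4%, with a median of -0.43. In control basal heads 27 of 42 members with an exon overlap were below input and 1 above, at a median of -0.50, and 16 of 30 with none were below and 6 above, at a median of -0.32. In UAS-dTrmt10A basal heads these medians were -0.38 and -0.20, in UAS-dTrmt10A HS heads -0.59 and -0.42, in control HS heads -0.46 and -0.44, and in RNAi basal heads -0.43 and -0.41, and the part of overlapping reads was not tested. Without UAS-dTrmt10A basal replicate 3 the 42 members below in UAS-dTrmt10A basal heads became 27 (37.5%), beside 19.7% of all genes. Total library size moved the all-gene median to between -0.34 and -0.05 and gave 1 member above and 59 below in control HS heads and 2 above and 56 below in RNAi basal heads. With the length trend removed the members' medians were -0.33 in UAS-dTrmt10A HS, -0.28 in control HS, -0.20 in UAS-dTrmt10A basal, -0.31 in RNAi basal and -0.28 in control basal heads, where the medians of all genes were -0.17, -0.19, -0.11, -0.21 and -0.15. In the same order of groups 35, 35, 27, 39 and 35 members were then below, which is 48.6%, 48.6%, 37.5%, 54.2% and 48.6%, beside 39.6%, 41.3%, 34.2%, 43.9% and 39.5% of all genes, and 7 to 9 members were above.

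**Figure D3:**
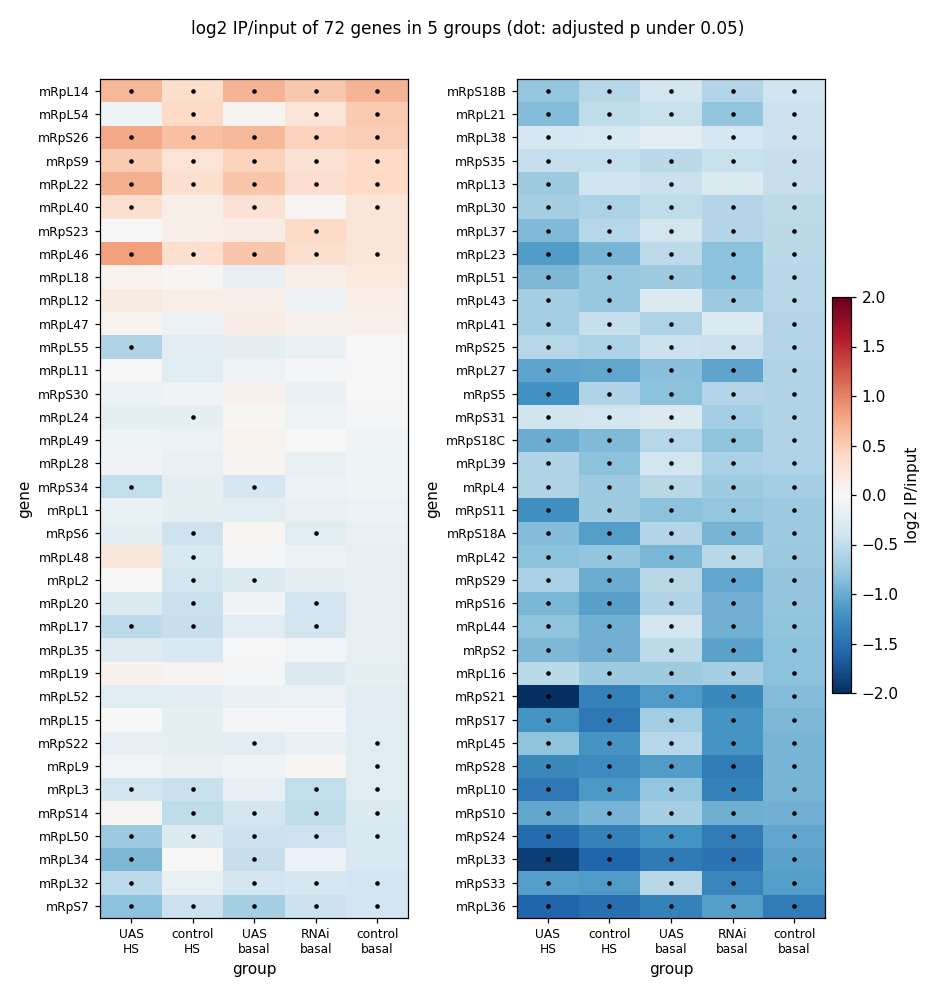
Fitted log2 IP/input (colour scale from -2 to 2) of 72 members in the 5 groups, ordered by the value in control basal heads. A dot marks an adjusted p under 0.05. The value of mRpS21 in UAS-dTrmt10A HS heads (-2.27) lies past the end of the scale. The upper rows from mRpL14 (0.68 in control basal heads) hold the members recovered above the average gene and the lowest row is mRpL36 (-1.39).

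The order of the members moved between groups, while no call changed direction. IP was below input in all 5 groups for 34 members and above in all 5 for 5, and 0 members were above in a group and below in another. These counts across groups were not made over all genes, so they show nothing particular to the members. The range of a member's mean over the 5 groups had a median of 0.39 and a maximum of 1.28 (mRpS21) on the log2 scale. The lowest fitted ratio was that of mRpS21 in UAS-dTrmt10A HS heads (-2.27), of mRpL33 in control HS (-1.59), UAS-dTrmt10A basal (-1.41) and RNAi basal heads (-1.48), and of mRpL36 in control basal heads (-1.39). The highest was that of mRpL46 in UAS-dTrmt10A HS (0.83), of mRpS26 in control HS (0.61) and of mRpL14 in the 3 basal groups (0.54 to 0.68). The 5 members above input in all groups were mRpL14, mRpL22, mRpL46, mRpS26 and mRpS9. mRpL14, which forms a bridge to the small subunit in bacteria, had log2 IP/input of 0.76, 0.60 and 0.71 in the 3 UAS-dTrmt10A HS samples, 0.37, 0.51 and 0.12 in control HS, 0.63, 0.63 and 0.78 in UAS-dTrmt10A basal, 0.26, 0.78 and 0.61 in RNAi basal and 0.64, 0.74 and 0.58 in control basal samples. All 15 samples were above 0, and the fitted ratio in control basal heads was 0.68 ± 0.08 (SE, adjusted p = 1.82e-05). mRpS26 followed with 0.49 ± 0.07 (adjusted p = 0.000143) and mRpS9 with 0.40 ± 0.09 (adjusted p = 0.00215) in control basal heads. mRpL54 was above input there (0.52 ± 0.10, adjusted p = 0.00107) but had -0.09 ± 0.14 in UAS-dTrmt10A HS and 0.06 ± 0.11 in UAS-dTrmt10A basal heads, which did not pass.

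At the other end in control basal heads was mRpL36, a short protein that binds zinc in bacteria. Its log2 IP/input was -1.06, -1.65 and -1.91 in UAS-dTrmt10A HS, -1.63, -2.22 and -0.82 in control HS, -1.54, -1.23 and -1.20 in UAS-dTrmt10A basal, -1.24, -0.92 and -1 in RNAi basal and -1.13, -1.40 and -1.70 in control basal samples. It was below 0 in all 15 samples, with -1.39 ± 0.18 in control basal heads (SE, adjusted p = 3.97e-05). mRpS33 (-1.10 ± 0.15), mRpL33 (-1.07 ± 0.23) and mRpS24 (-1.05 ± 0.15) were next in control basal heads, with adjusted p of 6.78e-05, 0.00161 and 9.5e-05. mRpL45 had -0.94 ± 0.13 and mRpL10 -0.94 ± 0.15, mRpS29 -0.79 ± 0.12, mRpL16 -0.82 ± 0.11 and mRpL4 -0.68 ± 0.10, all below input, while mRpL12 (0.14 ± 0.10), mRpL11 (-0.001 ± 0.10), mRpL2 (-0.16 ± 0.10) and mRpS30 (-0.01 ± 0.10) did not pass. The 3 S18 paralogs were all below input in all 5 groups, at -0.73 ± 0.11 (mRpS18A), -0.40 ± 0.14 (mRpS18B) and -0.61 ± 0.19 (mRpS18C) in control basal heads.

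The coding starts of the highest and the lowest of these members in control basal heads are shown with DRACH, the 5-base context in which m6A is made (A, G or T; A or G; A; C; A, C or T). mRpL14 holds 10 such matches in 483 coding bases and mRpL36 holds 1 in 384. Over the longest transcript, which includes the untranslated parts, mRpL14 holds 16.8 matches per kb and mRpL36 holds 8.08 per kb. Each line gives the first 240 coding bases, 5′ to 3′ along the gene's strand, with the DRACH matches in capitals, from the RefSeq genome of Release 6 (dm6).
mRpL14 (chrX:2344296-2344535, minus strand, 5 matches in the bases shown): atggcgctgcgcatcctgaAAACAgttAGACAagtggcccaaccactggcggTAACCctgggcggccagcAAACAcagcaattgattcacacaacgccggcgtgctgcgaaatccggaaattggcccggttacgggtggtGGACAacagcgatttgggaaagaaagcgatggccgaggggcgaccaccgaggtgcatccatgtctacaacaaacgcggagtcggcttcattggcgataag
mRpL36 (chr3L:8124799-8125038, minus strand, 0 matches in the bases shown): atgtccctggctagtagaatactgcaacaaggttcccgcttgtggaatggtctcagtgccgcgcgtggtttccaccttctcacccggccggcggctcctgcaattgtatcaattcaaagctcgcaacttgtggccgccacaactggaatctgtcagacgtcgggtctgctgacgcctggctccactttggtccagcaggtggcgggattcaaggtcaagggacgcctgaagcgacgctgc
The pair was picked for its IP/input values, and a match is not a modified site. Other members did not share the contrast: mRpL22 (9.25 DRACH per kb of its longest transcript) and mRpS26 (10.9 per kb) were above input in all 5 groups, and mRpS33 (28.5 per kb) was below. Over all members the density of DRACH in the longest transcript had a median of 16.6 per kb (range 8.08 to 30.6), close to the 16.8 per kb of all genes tested. Spearman's rho between this density and log2 IP/input in control basal heads was 0.19 over the 72 members and 0.14 over 10044 genes, which share their libraries and are not independent replicates. With exon length rho was 0.15 over the members and 0.32 over 10050 genes.

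**Figure D4:**
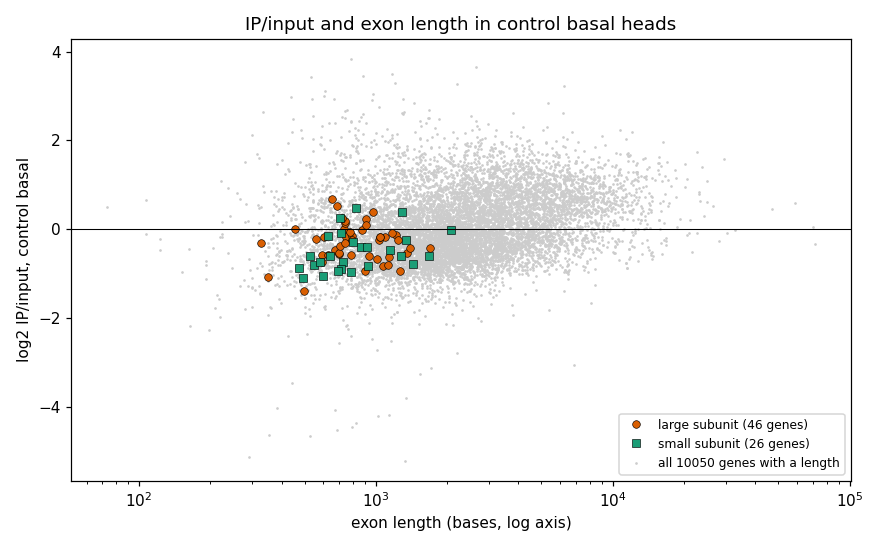
Log2 IP/input in control basal heads against exon length (bases, log axis) for the 10050 genes tested with a length (grey). Orange circles are the 46 members named for the large subunit and green squares the 26 named for the small subunit. The members lie at 327 to 2078 bases, left of most genes, and mostly under 0.

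Changes of log2 IP/input between groups asked whether dTrmt10A or HS changes recovery with the antibody. IP and input of the same replicate number come from the same RNA, so the fit with the RNA sample as a block (replicate block) is given beside each. UAS-dTrmt10A against control under basal conditions gave 0 of 72 members past the threshold in edgeR, beside 0.0% of all genes, and 0 in DESeq2, beside 0.0482% of all genes higher and 2.08% lower, with 8 members at an unadjusted p under 0.05. With the block 2 members were higher, mRpL44 (0.45, adjusted p = 0.0358) and mRpL45 (0.40, adjusted p = 0.0428), beside 1.47% of all genes. RNAi against control gave 0 members past in edgeR and 0 in DESeq2, each beside 0.0% of all genes, and 0 with the block, beside 0.029% higher and 0.0% lower, and 1 member had an unadjusted p under 0.05. HS against basal in control heads gave 0 in edgeR, beside 0.0% of all genes, 0 in DESeq2, beside 0.124% higher and 0.067% lower, and 0 with the block, beside 1.14% higher and 0.584% lower, with 3 members at an unadjusted p under 0.05.

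UAS-dTrmt10A against control after HS gave 1 member lower, mRpS5, and 0 higher, beside 0.706% of all genes called lower. mRpS5 (chr3L:24537236-24543534, plus strand) had log2 IP/input of -1.26, -1.053 and -1.23 in UAS-dTrmt10A HS samples, against -0.79, -0.38 and -0.65 in control HS samples. It had -0.83, -0.86 and -0.79 in UAS-dTrmt10A basal samples, against -0.63, -0.60 and -0.62 in control basal samples. The HS samples of the genotypes did not overlap, and the change was -0.56 ± 0.11 (SE, adjusted p = 0.0356), past the threshold in all 11 alternatives (adjusted p of 0.000158 to 0.0481). It passed without UAS-dTrmt10A HS replicate 3, and not without replicate 1 (adjusted p = 0.141) or replicate 2 (0.0624), nor without control HS replicate 1 (0.144), replicate 2 (0.18) or replicate 3 (0.0818). Its input level was 118, 111 and 111 CPM in UAS-dTrmt10A HS heads, against 129, 114.9 and 125 CPM in control HS heads, a log2 change of -0.13 ± 0.07 that did not pass. With the RNA sample as a block 6 members were higher, mRpL2, mRpL22, mRpL46, mRpL48, mRpS14 and mRpS9 (0.31 to 0.59), beside 7.17% of all genes, and 2 were lower, mRpS5 (-0.56, adjusted p = 0.0011) and mRpS21 (-0.86, adjusted p = 0.0272), beside 5.3%.

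HS against basal in UAS-dTrmt10A heads gave 0 members past the threshold in edgeR, beside 0.0378% of all genes. DESeq2 called 2 members lower, and its share of all genes is not given here. At an unadjusted p under 0.05 there were 12 members. With the block 6 were lower, beside 6.1% of all genes, namely mRpS21, mRpL10, mRpL23, mRpL37, mRpL55 and mRpS5. mRpS21 had log2 IP/input of -2.31, -2.13 and -2.14 in UAS-dTrmt10A HS samples, against -0.69, -1.08 and -1.48 in UAS-dTrmt10A basal samples. In control samples it had -1.06, -1.43 and -1.60 after HS, against -1.49, -0.71 and -0.53 under basal conditions. The UAS-dTrmt10A HS samples lay under all others, and the change with HS in UAS-dTrmt10A heads was -1.11 ± 0.23 (SE, adjusted p = 0.126, and 0.00292 with the block). The input level of mRpS21 was low, at 6.99 to 8.11 CPM in these HS heads, and 48.0% of its exonic bases lie opposite exons of CG8870.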

How the data were processed

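The authors deposited 1 table of raw read counts per gene for all 30 libraries. Per the labels and the study's methods, RNA was poly(A)-selected and fragmented, part was kept as input, and libraries were made with a stranded kit. Reads were trimmed with Trim Galore and aligned with STAR 2.7.3a to dm6, improper pairs were removed, and counts were made over a FlyBase annotation in union mode. The treatment of strand, multimapping reads and duplicates is not given in the sources used here. The labels name a single antibody maker while the methods name more than 1.

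Each comparison was fitted to the counts of its own libraries over all genes with edgeR 4.0.16 (quasi-likelihood test, R 4.3.3, TMM scaling, filterByExpr with a minimum count of 10 and a total of 15), and p-values were adjusted by Benjamini-Hochberg over all genes tested, with a threshold of 0.05. SE is the log2 change divided by the square root of F. CPM are TMM-scaled, and log2 IP/input per sample used a prior count of 2. The code was tested on simulated data. Nothing in the labels says that replicates were separate crosses, so p-values measure the spread between these samples.

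IP and input of the same number are the same RNA, and their deviations correlated at 0.162 to 0.396 (15 pairs). Between UAS-dTrmt10A HS and control HS input, same-numbered libraries correlated at 0.137 to 0.248, and the block is given beside that result. The members, the lists and the rule for named genes were chosen with earlier results of these data known. The rule names the 4 largest changes in each direction past the threshold, the 4 highest and 4 lowest input levels and IP/input ratios, members that failed the filter, members of listed roles and the pathway lists. Genes named for other reasons, such as mRpL47, mRpS5 in the input and the promoter examples, were chosen after their values were seen. Alternatives were DESeq2 1.42.0 (size factors and Wald test), total library size, no filter, 10 counts in every library, mitochondrial rows removed, all libraries in 1 fit, a length trend removed (lowess span 0.3), a replicate block, and each library left out. Leaving out the libraries with Yp1 above 100 CPM was added after seeing the data.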

Additional observations from a re-analysis of the deposited data

How the results depend on the processing

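Over the counts of members called, 152 values under another setting stayed within 1.5 times the value reported and 23 did not, and with 1 library left out 75 did and 12 did not. For single named genes 606 values kept their direction and side of the threshold, 23 lost the call and 1 changed sign: mRpS9 with HS in control heads had -0.10 with total library size. With 1 library left out 199 such values kept the call and 29 lost it. The number of members called with HS in control heads was 59 with total library size, 53 with the length trend removed, 44 with that and the replicate block, 17 without the libraries with high Yp1, and 17 to 26 with 1 library left out. With HS in UAS-dTrmt10A heads it was 35 to 46 with 1 library left out. For UAS-dTrmt10A against control after HS it was 17 with the replicate block, 3 with the length trend removed, 21 in a fit of all libraries, 4 without the library with high Yp1, and 2 to 10 with 1 library left out. Members past the threshold for IP/input in UAS-dTrmt10A basal heads numbered 32 to 45 with 1 library left out. The interaction gave 1 with DESeq2, with no filter and in a fit of all libraries, and 0 to 1 with 1 library left out. For changes of IP/input, UAS-dTrmt10A against control gave 2 under basal conditions with the replicate block and 1 with the length trend also removed. After HS it gave 2 with mitochondrial rows removed, with DESeq2 and with 10 counts in every library, 8 with the replicate block, 8 with the length trend also removed, 3 in a fit of all libraries, and 0 to 1 with 1 library left out. HS against basal in UAS-dTrmt10A heads gave 8 with total library size, 2 with DESeq2, 6 with the replicate block and 6 with the length trend also removed. The cause of these differences was not tested. In the other input comparisons same-numbered libraries correlated between -0.142 and 0.185. That range overlaps the 0.137 to 0.248 of UAS-dTrmt10A HS and control HS input, and the labels pair none of these libraries beyond the number. With the replicate block 3 members were higher and 22 lower with HS in control heads, and 0 and 50 in UAS-dTrmt10A heads.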
